A study of Homo sapiens with 16 samples.

Results

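RNA from the human colon fibroblast line Ccd18-Co was compared between cultures given belinostat and cultures given GSK-J4 after repeated cytokine exposure. The 8 libraries were taken by their labels, belinostat libraries 17 to 20 and GSK-J4 libraries 21 to 24, from a series of 16 libraries, and all genes of the table entered the comparison. The legends of the study give 3 replicates per treatment group for its RNA-seq, so its own results may rest on a different set of libraries. Cells of both groups had first received 3 cytokine pulses, in which OSM, TNF and IL-17A were each used at 10 ng/ml and IL-1B at 0.1 ng/ml as labelled (the methods of the study give a lower dose of IL-1B). A pulse lasted 72 h in serum-free medium, with 96 h of recovery in full growth medium after it. Following 1 week of rest the cells were kept for 5 days with belinostat at 250 nM or with GSK-J4 at 10 µM as labelled (the text of the study gives another concentration for its compounds), and RNA was taken 2 weeks after the compound had been removed. The doses differ, the compounds are not related in structure, and each was given at 1 dose, so the comparison sets 2 whole treatments side by side. Vehicle libraries 13 to 16, from cells that had the same pulses and then DMSO, show on which side of the untreated level a difference lies. Unstimulated libraries 1 to 4 had no cytokines. By their titles they had DMSO, although the column headers of their counts say none. The cultures are wells of a single line, and the labels do not say that the 4 wells of a group came from separate experiments, so the p-values measure the spread between these samples, which may be technical.

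Belinostat blocks histone deacetylases, the enzymes that take acetyl groups off histone tails, and acetylated chromatin is in general open and transcribed. GSK-J4 enters cells as an ester and blocks the demethylases KDM6A and KDM6B, which remove the repressive methyl marks of H3K27. Fibroblasts of the gut wall hold the matrix together, send chemokines to immune cells and can take up features of contractile cells such as myofibroblasts. In the inflamed bowel a part of them becomes inflammatory fibroblasts, which secrete chemokines and matrix metalloproteinases, while contractile stroma expresses actins, myosin and their regulators. The study asked whether such compounds move fibroblasts that had been pushed towards the inflammatory state.

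The libraries held 14.4 to 18.3 M estimated counts under belinostat and 16.7 to 17.5 M under GSK-J4. On the first principal component, with 29.4% of the variance of the most variable genes, the belinostat libraries lay between -8.94 and -5.90 and the GSK-J4 libraries between 6.29 and 9.36. The vehicle libraries lay between them, at 0.27 to 3.60. Belinostat library 17 stood apart on the second component (20.2% of the variance) at -12.98, where the other 3 belinostat libraries lay between -1.42 and 0.78, and values without it are given for many of the genes and lists where it stands far from its group. All 10 fibroblast markers were expressed, and 5 of them were called lower under belinostat, FN1 (-0.63), COL1A1 (-0.43), THY1 (-0.43), COL3A1 (-0.38) and COL1A2 (-0.26). Their part in the other results was not tested. Desmin (DES), the smooth muscle filament, averaged under 5 normalized counts, and of 9 immune markers 7 averaged under 5, with CD3E, MS4A1 and NKG7 at 0 in all 8 libraries. Of 7 endothelial markers 4 averaged under 5, but TEK averaged 9322 under belinostat and 7582 under GSK-J4 (0.30, called). All 3 markers of interstitial cells of Cajal were expressed. KIT averaged 3590 under belinostat and 3025 under GSK-J4 (0.25, called), and ANO1 averaged 2422 and 2619 (not called). In bulk RNA, fewer cells of a kind and less RNA per cell cannot be told apart.

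DESeq2 called 1795 of 14717 genes tested between the compounds at an adjusted p under 0.05, which is 12.2%. Of these, 910 were higher under belinostat (6.18% of genes tested) and 885 were lower (6.01%), and the median absolute log2 difference of a called gene was 0.35. A difference beyond 1.5 on the log2 scale was called for 73 genes, 26 higher and 47 lower under belinostat. The 2 groups of libraries did not overlap for 2503 genes, 17% of those tested, whether or not the gene was called. Against vehicle, DESeq2 called 889 of 14209 genes under belinostat (6.26%) and 253 of 13197 under GSK-J4 (1.92%). The GSK-J4 count was 91 with edgeR, 542 with only the 2 groups fitted and 132 to 193 with a library left out, so a GSK-J4 call against vehicle is the less settled of these. Both of those comparisons use the same vehicle libraries and each shares a treated group with the direct one, so their values stand beside the direct difference only to place it. Differences are given throughout as log2 of belinostat over GSK-J4, negative where GSK-J4 was higher, and levels as counts divided by DESeq2 size factors (normalized counts) in library order.

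**Figure D1:**
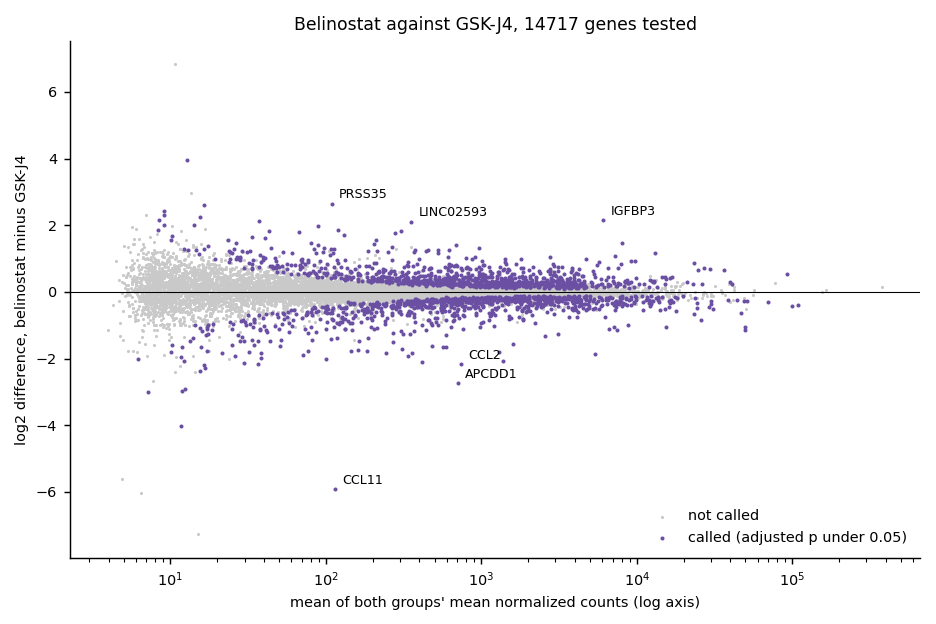
Each point is a gene. The horizontal log axis gives the mean of both groups' mean normalized counts, and the vertical axis the log2 difference of belinostat minus GSK-J4. Called genes (purple) lie on both sides of 0, and CCL11 at -5.92 is the farthest labelled point.

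Of the 26 gene lists described, the contractile stroma program had the largest share of members called between the compounds. All 9 genes of the study's contractile stroma program had a negative difference, DESeq2 called 8 of them (88.9%), and their median was -0.90 against 0.00338 over all genes tested. That median is the value of GREM1, the member that was not called. The called members lay between -0.45 and -0.59 or between -1.05 and -1.33. Against vehicle, 8 were called higher under GSK-J4 and 2, ACTA2 and ACTG2, were called lower under belinostat. Without belinostat library 17 the count was again 8 and the median -0.61. The list holds transcripts that the study displayed for this state, so its count is not independent evidence of a direction.

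MYH11, the smooth muscle myosin heavy chain (chr16:15703135-15857028, minus strand), held 826, 1534, 1653 and 1847 normalized counts under belinostat and 3896, 3253, 3513 and 4033 under GSK-J4. Every GSK-J4 library lay above every belinostat library, and library 17 was the lowest of the 8. The difference was -1.33 (SE 0.22, DESeq2 adjusted p 8.23e-08), with GSK-J4 at 1.11 (DESeq2 adjusted p 0.000166) and belinostat at -0.22 (DESeq2 adjusted p 0.733) against vehicle, whose libraries held 1975, 1862, 1360 and 1633. ACTA2, the smooth muscle alpha actin that marks myofibroblasts (chr10:88935074-88991339, minus strand), held 8967, 10520, 9951 and 10520 normalized counts under belinostat and 20980, 21660, 20660 and 19660 under GSK-J4. The groups were far apart for their spread, and the vehicle libraries, at 13250, 16090, 13990 and 13240, lay in the gap between them. The difference of -1.05 (SE 0.12, DESeq2 adjusted p 1.11e-17) was made up of -0.50 under belinostat and 0.55 under GSK-J4, both called. ACTG2, the gamma actin of visceral smooth muscle, held 3487, 4343, 4424 and 4330 normalized counts under belinostat and 8942, 9304, 9293 and 8650 under GSK-J4. It was ordered in the same way as ACTA2, belinostat below vehicle and GSK-J4 above it, with a difference of -1.13 (SE 0.12, DESeq2 adjusted p 5.04e-18). Actin transcripts are so alike that kallisto has to apportion reads between them, which the SE does not cover, and ACTA2 also overlaps FAS on the opposite strand.

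AOC3, an amine oxidase on the surface of smooth muscle and fat cells, held 371, 481, 571 and 495 normalized counts under belinostat and 959, 1161, 1158 and 912 under GSK-J4, a difference of -1.13 (SE 0.13, DESeq2 adjusted p 2.05e-16). For AOC3 the GSK-J4 libraries were above vehicle by 0.86 and the belinostat libraries were not called against it (-0.27). RGS5, a regulator of G protein signalling typical of pericytes, held 502, 419, 483 and 470.3 normalized counts under belinostat and 686, 762, 689 and 652 under GSK-J4. Both groups lay above the vehicle mean of 385 ± 37.2 (SD, n = 4), and only the GSK-J4 value passed the test there. The difference between the compounds was -0.57 (SE 0.10, DESeq2 adjusted p 5.83e-07). MYL9, a myosin light chain, differed by -0.59 (SE 0.11), MYLK, the kinase that phosphorylates it, by -0.46 (SE 0.073), and the receptor NOTCH3 by -0.45 (SE 0.089), all called and without overlap. GREM1, a secreted BMP antagonist, was the uneven member, with 316, 1399, 2243 and 804 normalized counts under belinostat and 2373, 2803, 2080 and 1610 under GSK-J4. Its libraries overlapped and its difference of -0.90 (SE 0.51, DESeq2 adjusted p 0.294) was not called, although without belinostat library 19 it was (-1.40), with adjusted p over the alternatives from 0.041 to 0.541.

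The wider smooth muscle list showed 17 of 32 tested members higher under GSK-J4 and 2 higher under belinostat, 59.4% called, with a median of -0.31. Without library 17 the calls in either direction fell from 19 to 17 and the median was -0.25. The lowest count over the left-out libraries was 14. CNN1, the actin-binding calponin of smooth muscle, held 554, 857, 1052 and 742 normalized counts under belinostat and 1463, 1417, 1368 and 1519 under GSK-J4, a difference of -0.85 (SE 0.15, DESeq2 adjusted p 5.35e-07). SMTN (smoothelin) differed by -0.70 (SE 0.093), the long noncoding RNA CARMN by -0.68 (SE 0.11) and TAGLN (transgelin) by -0.54 (SE 0.14), each without overlap. The members that went the other way were MYOCD, the coactivator of serum response factor, and the integrin chain ITGA8. MYOCD held 8776, 9892, 8665 and 9822 normalized counts under belinostat and 7775, 7335, 7314 and 7267 under GSK-J4, a small difference of 0.32 (SE 0.06, DESeq2 adjusted p 2.76e-06). ITGA8 held 14990, 10430, 9858 and 10150 normalized counts under belinostat and 9423, 7735, 8443 and 8213 under GSK-J4, with library 17 far above the rest, and differed by 0.43 (SE 0.11, DESeq2 adjusted p 0.00204) or 0.26 without that library. The smooth muscle marker genes as a set summed to 12570 to 17760 normalized counts under belinostat and 24720 to 25280 under GSK-J4, while DES stayed under 5 on average. Of 6 pericyte markers, RGS5, CSPG4 and NOTCH3 were higher under GSK-J4 and MCAM higher under belinostat, and KCNJ8 averaged under 5.

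**Figure D2:**
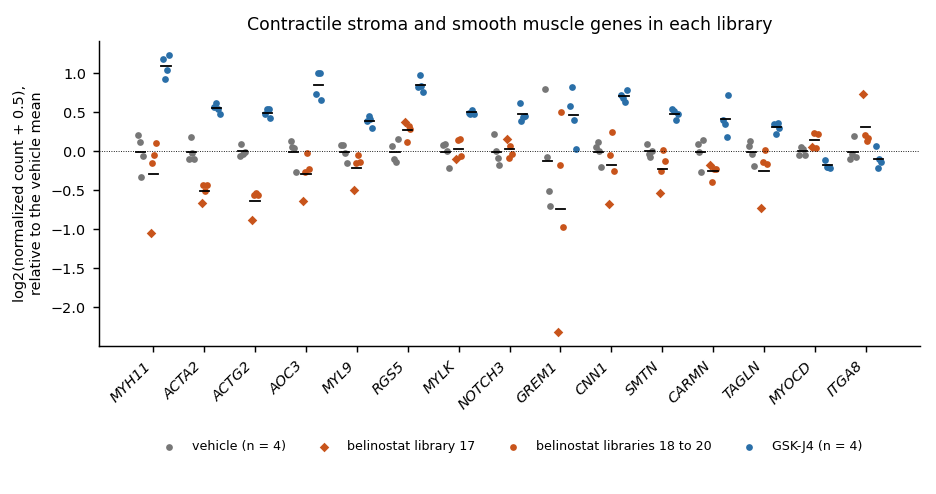
Each point is a library (4 per group) and each bar a group mean. The vertical axis is log2 of normalized count plus 0.5 relative to the vehicle mean. GSK-J4 points lie above belinostat points for every gene shown except GREM1, whose groups overlap, and MYOCD and ITGA8, where they lie below.

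Promoters of these contractile genes were read for the CArG box, the element that serum response factor binds and MYOCD acts through. RefSeq windows (assembly GRCh38.p14, 250 bases before to 50 after the first start listed for a symbol) were at hand for 22 called members of both lists, and 6 of them held a CArG box (27.3%), against 351 of 27305 windows in the whole table (1.29%). The box reads the same class of letters on both strands. A match is a description of the letters and not a measured binding site. Shown here are the 6 stretches that carry it, 5′ to 3′ on the strand of the gene, with the boxes in capitals. All lie upstream of the listed start. The start listed for MYLK lies 264 kb inside the gene as GENCODE draws it, so its stretch belongs to an internal start and not to the first promoter. Of the 19 windows within 1 kb of the 5′ end in GENCODE, 5 held a box (26.3%). MYLK (chr3:123620593-123620682, minus strand) has its box at -94 relative to that internal start, ACTG2 (chr2:73892858-73892984, plus strand) has boxes at -110 and -73, SRF (chr6:43171199-43171268, plus strand) at -30 and -10, FLNA (chrX:154374679-154374768, minus strand) at -94, CNN2 (chr19:1026479-1026568, plus strand) at -89 and TPM4 (chr19:16067325-16067414, plus strand) at -173.
MYLK: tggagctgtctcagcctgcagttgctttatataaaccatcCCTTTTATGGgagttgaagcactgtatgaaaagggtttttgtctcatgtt
ACTG2: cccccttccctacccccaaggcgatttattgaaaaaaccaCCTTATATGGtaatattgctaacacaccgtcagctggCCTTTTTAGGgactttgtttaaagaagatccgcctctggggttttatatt
SRF: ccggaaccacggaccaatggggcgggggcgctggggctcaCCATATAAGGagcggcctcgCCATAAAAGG
FLNA: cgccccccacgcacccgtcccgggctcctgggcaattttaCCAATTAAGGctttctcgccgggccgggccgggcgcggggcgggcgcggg
CNN2: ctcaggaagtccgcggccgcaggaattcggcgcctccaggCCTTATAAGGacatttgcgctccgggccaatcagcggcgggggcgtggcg
TPM4: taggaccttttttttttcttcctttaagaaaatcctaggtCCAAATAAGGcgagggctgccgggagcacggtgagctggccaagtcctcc

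Counting members whether or not called, 2 of 6 windows of the contractile stroma program (33.3%) and 4 of 32 of the smooth muscle list (12.5%) held a box. The stretches above were drawn from called members only, and most of those were lower under belinostat. The calls of the 6 genes with a box follow from that choice, and all 6 were lower under belinostat than under GSK-J4. Those of the 6 not described above were chosen here for their promoters and have small differences. SRF, which encodes serum response factor itself, held 1654, 1722, 1836 and 1762 normalized counts under belinostat and 1983, 1982, 2047 and 2130 under GSK-J4, a difference of -0.22 (SE 0.048, DESeq2 adjusted p 7.45e-05). FLNA, the actin cross-linker filamin A, differed by -0.29 (SE 0.061), CNN2, a calponin, by -0.33 (SE 0.06), and TPM4, a tropomyosin, by -0.36 (SE 0.063). No box was found in the window of ACTA2, CNN1 or SMTN, which says only that the letters are not in that stretch.

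Chemokines and cytokines were the group with the widest single differences. Of 21 tested members of a list of CC chemokines and other cytokines, 9 were higher under GSK-J4 and 1 under belinostat (47.6% called), with a median of -0.72, or -0.51 and again 10 calls without library 17. Against vehicle, 8 were called lower under belinostat, while under GSK-J4 1 was called higher and 1 lower. CCL11 (eotaxin, which draws eosinophils, chr17:34285742-34288334, plus strand) held 0.955, 4.88, 3.24 and 6.23 normalized counts under belinostat and 180, 331, 220.5 and 175 under GSK-J4. It was almost absent from all 4 belinostat libraries and present at the vehicle level in all 4 GSK-J4 libraries, as the vehicle held 263, 252, 184 and 204. The difference was -5.92 (SE 0.44, DESeq2 adjusted p 1.65e-38), and GSK-J4 differed from vehicle by 0.0057 (DESeq2 adjusted p 0.998). CCL2, which draws monocytes (chr17:34255274-34257208, plus strand), held 211, 332, 326 and 215 normalized counts under belinostat and 979, 1506, 1173 and 1176 under GSK-J4. The lowest GSK-J4 library was above the highest belinostat library by a wide margin, with a difference of -2.16 (SE 0.15, DESeq2 adjusted p 3.6e-44) and -2.29 (DESeq2 adjusted p 3.11e-49) between belinostat and vehicle. CCL7 and CCL8, which lie in the same cluster on chromosome 17 and are named here after their values were seen, had few counts. CCL7 held 4.77, 3.66, 2.16 and 0 normalized counts under belinostat and 18.3, 26.6, 23.4 and 15.7 under GSK-J4, and CCL8 held 0, 1.22, 3.24 and 2.08 normalized counts under belinostat and 8.14, 24.6, 12.2 and 6.29 under GSK-J4. Their differences were -2.98 (SE 0.54, DESeq2 adjusted p 1.2e-06) and -3.00 (SE 0.75, DESeq2 adjusted p 0.00119).

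CXCL10, an interferon-induced chemokine named after its values were seen, also had few counts, 2.86, 6.11, 9.71 and 5.19 normalized counts under belinostat and 33.6, 38.9, 17.3 and 17.8 under GSK-J4. No belinostat library reached a GSK-J4 library, and the difference was -2.18 (SE 0.61, DESeq2 adjusted p 0.00536).

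CXCL12, LIF and CXCL14 were more abundant members of the list. CXCL12, a chemokine that stroma makes constantly for lymphocytes and progenitors, held 1501, 1992, 2386 and 1499 normalized counts under belinostat and 4033, 5144, 4331 and 4074 under GSK-J4. The groups were clearly apart, with a difference of -1.25 (SE 0.13, DESeq2 adjusted p 3.3e-18), and belinostat was below vehicle, at -0.92 (DESeq2 adjusted p 1.8e-09). LIF, a cytokine of the IL-6 family, held 71.6, 36.6, 38.8 and 26 normalized counts under belinostat and 133, 150.5, 106 and 86 under GSK-J4, a difference of -1.45 (SE 0.29, DESeq2 adjusted p 2.79e-05) that was not called against vehicle on either side (-0.72 for belinostat and 0.73 for GSK-J4). CXCL14, a chemokine of resting epithelium and stroma, was the member that went the other way. It held 12510, 11670, 8961 and 13860 normalized counts under belinostat and 5196, 3294, 4171 and 4392 under GSK-J4 and 3738, 4805, 4915 and 5782 in vehicle, so belinostat alone stood apart, with a difference of 1.46 (SE 0.14, DESeq2 adjusted p 2.87e-21) from GSK-J4 and 1.29 from vehicle. In the RefSeq windows an NF-kB site was present in 1 of the 6 called members that had a window (16.7%), CXCL10, and in 10.8% of all windows. CCL11 and CCL2 had no window. Counting members whether or not called, 6 of the 20 windows of this list held a site. So did 5 of the 7 windows of the inflammatory fibroblast program described below. CXCL8, the only called member of that program with a window, held none.

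The inflammatory fibroblast program of the study was lower under belinostat in each of its 11 genes, with a median of -0.43, and DESeq2 called 4 of them (36.4%). This list was likewise taken from transcripts that the study displayed and is not independent evidence of a direction. Fitting only these 8 libraries gave 7 calls. Against vehicle, 3 members were called lower under belinostat and 0 higher, and 0 were called in either direction under GSK-J4. MMP3 (stromelysin, chr11:102835801-102843609, minus strand) held 1140, 400.5, 457 and 324 normalized counts under belinostat and 1881, 2513, 1989 and 1765 under GSK-J4. Every GSK-J4 library was above every belinostat library, and library 17 lay far above the other 3 of its group. The difference was -1.81 (SE 0.36, DESeq2 adjusted p 2.02e-05) and -2.37 (DESeq2 adjusted p 3.31e-18) without that library, and neither compound was called against vehicle (-0.93 and 0.88). MMP1, the interstitial collagenase near it on chromosome 11, held 482, 211, 216 and 189 normalized counts under belinostat and 836, 1077, 787 and 769 under GSK-J4, again with library 17 high, and differed by -1.66 (SE 0.31, DESeq2 adjusted p 2.6e-06), or -2.08 without it. In contrast to MMP3, its GSK-J4 libraries lay within 0.083 of vehicle and its belinostat libraries below it, at -1.57 (DESeq2 adjusted p 2.17e-05). THY1, a surface glycoprotein of fibroblasts, differed by -0.43 (SE 0.12, DESeq2 adjusted p 0.00465).

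Of the neutrophil-attracting chemokines of the program, only CXCL8 was called between the compounds. Against vehicle, belinostat was called lower for CXCL8 (-0.75, DESeq2 adjusted p 0.00973) and CXCL1 (-0.54, DESeq2 adjusted p 0.000902), and not called for CXCL2, CXCL3 or CXCL5. CXCL8 held 271, 198, 243 and 228 normalized counts under belinostat and 259, 415, 454 and 350.1 under GSK-J4. Libraries 17 and 21 overlapped, the difference was -0.65 (SE 0.21, DESeq2 adjusted p 0.0228), and the call was lost by edgeR (-0.64), without belinostat library 18 (-0.58), without belinostat library 20 (-0.64), without GSK-J4 library 22 (-0.59) and without GSK-J4 library 23 (-0.54), with adjusted p from 0.00287 to 0.133 over the DESeq2 and edgeR alternatives. CXCL5 held 88.8, 80.6, 47.5 and 75.8 normalized counts under belinostat and 112, 95.2, 136 and 115 under GSK-J4. Its groups did not overlap, but its difference of -0.65 (SE 0.24, DESeq2 adjusted p 0.0512) missed the threshold, and it passed with TMM size factors (-0.65), with low counts filtered (-0.64), with only these 8 libraries fitted (-0.65) and without belinostat library 17 (-0.76), with adjusted p from 0.0249 to 0.201 over the DESeq2 and edgeR alternatives. CXCL1 at -0.29 (SE 0.13, DESeq2 adjusted p 0.135) and podoplanin (PDPN) at -0.42 (SE 0.23, DESeq2 adjusted p 0.268) were not called, and both passed only with these 8 libraries fitted alone, where adjusted p was 0.0232 and 0.0126 and the highest over the alternatives 0.43 and 0.565. CXCL2 (-0.37), CXCL3 (-0.16), the protease FAP (-0.45) and the anchoring collagen COL7A1 (-0.17) were not called. These CXC genes have close paralogs, whose reads the estimated counts divide.

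**Figure D3:**
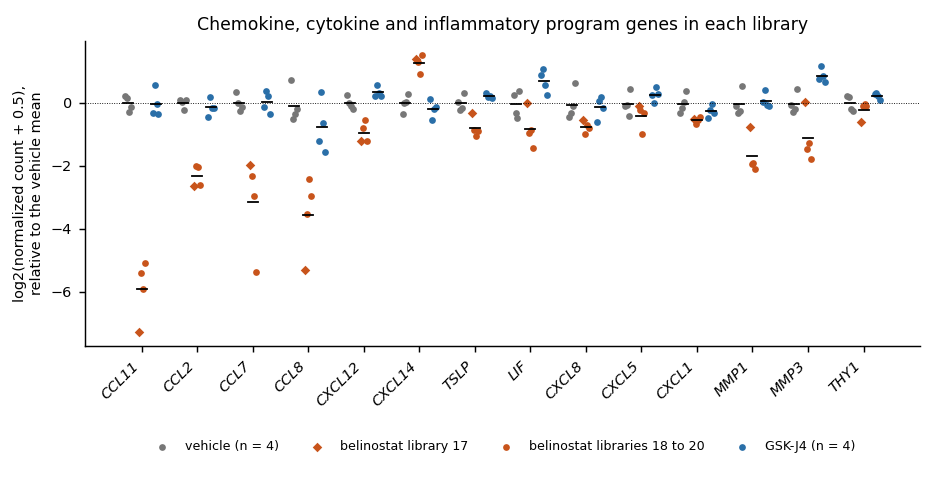
Each point is a library (4 per group) and each bar a group mean, on the scale of log2 of normalized count plus 0.5 relative to the vehicle mean. The 4 belinostat libraries of CCL11, CCL2 and CCL7 lie far below both other groups, CXCL14 lies above them, and library 17 (diamond) is the highest belinostat library for MMP1 and MMP3.

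The 15 genes with the largest difference in favour of belinostat, among called genes with at least 50 normalized counts on average and no overlap, ran from 2.65 (PRSS35) to 1.39 (KIAA1755). PRSS35, a serine protease-like protein (chr6:83512534-83525704, plus strand), held 140.3, 228, 180.2 and 204 normalized counts under belinostat and 41.7, 28.7, 23.4 and 26.2 under GSK-J4. All belinostat libraries were several times above all GSK-J4 and vehicle libraries, with a difference of 2.65 (SE 0.25, DESeq2 adjusted p 1.2e-22) and 2.17 against vehicle. IGFBP3, a secreted binding protein of insulin-like growth factors (chr7:45912245-45921874, minus strand), held 5769, 11340, 11120 and 11570 normalized counts under belinostat and 2378, 2186, 2070 and 2311 under GSK-J4. Library 17 was the lowest of its group, and the difference of 2.15 (SE 0.23, DESeq2 adjusted p 8.28e-19) was 2.34 without it. LINC02593 and SAMD11, neighbours at the end of chromosome 1 on opposite strands, were both higher under belinostat. LINC02593 (chr1:916865-921016, minus strand) held 604, 537, 465 and 690.5 normalized counts under belinostat and 153, 106, 141 and 136 under GSK-J4, and SAMD11 (chr1:923923-944575, plus strand) held 549.9, 448, 323 and 591 normalized counts under belinostat and 139, 119.8, 131 and 146 under GSK-J4. Their differences were 2.10 (SE 0.14, DESeq2 adjusted p 3.6e-44) and 1.84 (SE 0.18, DESeq2 adjusted p 1.08e-22), and for LINC02593 alone of this pair GSK-J4 was also called lower than vehicle (-0.67).

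Several others of these 15 encode secreted or surface proteins. NPR3, the clearance receptor of natriuretic peptides, held 397, 429.8, 408 and 479.7 normalized counts under belinostat and 129, 112, 163 and 97.5 under GSK-J4, a difference of 1.77 (SE 0.19, DESeq2 adjusted p 1.45e-17). NOG (noggin, an antagonist of BMP ligands) held 279, 161, 136 and 221 normalized counts under belinostat and 51.9, 72.7, 59.9 and 61.8 under GSK-J4. Its belinostat libraries were all above its GSK-J4 and vehicle libraries, with a difference of 1.70 (SE 0.22, DESeq2 adjusted p 1.6e-12). CPE, a peptide-processing carboxypeptidase, differed by 1.80 (SE 0.29), ALKAL1, a ligand of ALK receptors, by 1.87 (SE 0.32), and ATRNL1, an attractin-like membrane protein, by 1.55 (SE 0.16). ATRNL1 lay on both sides of vehicle, at 0.73 under belinostat and -0.82 under GSK-J4, both called. Inside the cell, LMCD1, a LIM domain protein, differed by 1.41 (SE 0.15), KIAA1755 by 1.39 (SE 0.23) and SYT15B by 1.96 (SE 0.34), a gene whose reads a close paralog may share. KRT7, a keratin of simple epithelia, held 203, 332, 294 and 360.3 normalized counts under belinostat and 122, 84, 104 and 134 under GSK-J4, a difference of 1.42 (SE 0.25, DESeq2 adjusted p 7.21e-07). Beside it, of 10 epithelial markers KRT18 (0.98) and KRT8 (0.33) were called higher under belinostat, the markers summed to 1992 to 3488 normalized counts under belinostat and 1499 to 1725 under GSK-J4, and EPCAM, VIL1 and CDX2 averaged under 5 with KRT20 and MUC2 at 0 in all 8 libraries.

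Among the 15 largest differences in favour of GSK-J4, which ran from -5.92 (CCL11) to -1.76 (ATF3), most were called below vehicle under belinostat, above it under GSK-J4, or both. MMP3, LRIG1 and IFI6 were called on neither side of vehicle. APCDD1, an inhibitor of WNT signalling at the cell surface (chr18:10454635-10489949, plus strand), held 134, 229.6, 202 and 170.3 normalized counts under belinostat and 1036, 1593, 1090 and 1167 under GSK-J4. Its GSK-J4 libraries overlapped the vehicle libraries (1253, 1112, 782 and 1246), and the difference of -2.74 (SE 0.17, DESeq2 adjusted p 1.07e-54) came with -2.58 between belinostat and vehicle. The matrix protease ADAMTS8 had the same order, with 51.5, 167, 184 and 163 normalized counts under belinostat and 459, 572, 518 and 583 under GSK-J4. Library 17 was the lowest there, and the difference was -1.92 (SE 0.28, DESeq2 adjusted p 6.73e-10), or -1.63 without it. KYNU, an enzyme of tryptophan breakdown (chr2:142877657-143055833, plus strand), held 83.1, 64.7, 56.1 and 57.1 normalized counts under belinostat and 233, 162, 239.8 and 261 under GSK-J4 and 50.5, 47.9, 55.9 and 79.3 in vehicle. Here belinostat lay at the vehicle level (0.16) and GSK-J4 alone was called above it, at 1.94 (DESeq2 adjusted p 5.41e-19), with a difference of -1.77 (SE 0.20, DESeq2 adjusted p 3.12e-17). ATF3, a stress-induced transcription factor, had that order too, with 56.3, 24.4, 27 and 31.1 normalized counts under belinostat and 108, 103, 155 and 108 under GSK-J4, a difference of -1.76 (SE 0.35, DESeq2 adjusted p 1.63e-05) and 2.18 between GSK-J4 and vehicle.

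CLDN11, a tight junction claudin, held 208, 124, 192 and 104 normalized counts under belinostat and 568, 944, 686 and 495 under GSK-J4. Its vehicle libraries (412, 243, 306 and 328) lay between the groups, and both sides were called, -1.03 under belinostat and 1.06 under GSK-J4, for a difference of -2.10 (SE 0.23, DESeq2 adjusted p 7.62e-17). NRP1, a coreceptor of semaphorins and VEGF, was split in the same way, at -1.02 and 0.75 against vehicle, both called, and -1.77 (SE 0.19, DESeq2 adjusted p 1.9e-18) between the compounds. PTGDS, a prostaglandin D synthase, held 51.5, 30.5, 42.1 and 35.3 normalized counts under belinostat and 155, 224, 132 and 135 under GSK-J4, and it too was called on both sides of vehicle, with -2.01 (SE 0.25, DESeq2 adjusted p 1.9e-13) between the compounds. A2M, a broad protease inhibitor of plasma and stroma, held 885, 2755, 2917 and 2659 normalized counts under belinostat and 8632, 10050, 7858 and 7271 under GSK-J4. Library 17 was far below the other belinostat libraries, and the difference was -1.88 (SE 0.30, DESeq2 adjusted p 3.12e-08), or -1.61 without it. The potassium channel KCNK3 held 281, 117, 115 and 114 normalized counts under belinostat and 599, 536, 577 and 537 under GSK-J4, with library 17 above its group, and differed by -1.84 (SE 0.24, DESeq2 adjusted p 4.14e-12) or -2.28 without that library. THBD (thrombomodulin), a receptor of thrombin, differed by -1.90 (SE 0.30) and LRIG1, a brake on receptor tyrosine kinases, by -1.83 (SE 0.38). IFI6, an interferon-induced gene, was the least secure of the 15, with 395, 618, 442 and 653 normalized counts under belinostat and 1041, 5735, 951 and 1194 under GSK-J4. GSK-J4 library 22 held most of the signal, the difference was -2.08 (SE 0.75, DESeq2 adjusted p 0.0477), and the call was lost by edgeR (-2.08), with only these 8 libraries fitted (-2.08), without belinostat library 17 (-1.97), without belinostat library 18 (-2.17), without belinostat library 19 (-2.01), without belinostat library 20 (-2.20), without GSK-J4 library 22 (-1.01) and without GSK-J4 library 24 (-2.29), with adjusted p from 0.0444 to 0.489 over the DESeq2 and edgeR alternatives.

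**Figure D4:**
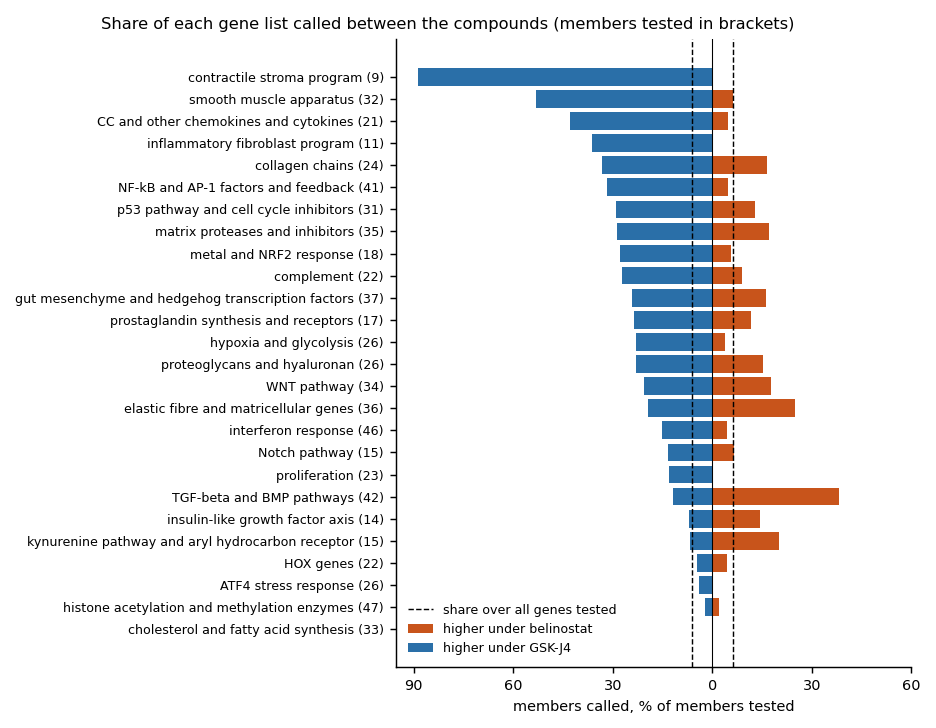
Bars give the share of a list's tested members that DESeq2 called, to the left those higher under GSK-J4 and to the right those higher under belinostat. Dashed lines mark the shares over all genes tested, 6.01% and 6.18%. The contractile stroma program reaches farthest to the left and the TGF-beta and BMP list farthest to the right.

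Matrix genes went both ways. Of 24 tested collagen chains 8 were higher under GSK-J4 and 4 under belinostat (50%), with a median of -0.13. COL6A2 (chr21:46098112-46132848, plus strand) held 30840, 31240, 31610 and 29980 normalized counts under belinostat and 63980, 74630, 68020 and 66270 under GSK-J4. The spread within a group was small beside the gap, and the vehicle libraries, at 51080, 49020, 47360 and 50320, lay between. The difference was -1.14 (SE 0.051, DESeq2 adjusted p 1.68e-105). COL6A1, which lies beside it on chromosome 21 and encodes a partner chain of the same beaded microfibril, differed by -1.05 (SE 0.062, DESeq2 adjusted p 4.7e-60), with -0.69 under belinostat and 0.37 under GSK-J4 against vehicle, all called. COL5A3, a minor fibrillar chain, held 107, 149, 132 and 189 normalized counts under belinostat and 474, 458, 479.5 and 483 under GSK-J4, a difference of -1.72 (SE 0.15, DESeq2 adjusted p 6.56e-29). COL4A5, a basement membrane chain, differed by -1.04 (SE 0.16). Higher under belinostat were the fibrillar chains COL24A1, at 0.91 (SE 0.19), and COL11A1, which held 825, 1187, 816 and 1122 normalized counts under belinostat and 686, 538, 497 and 679 under GSK-J4 and differed by 0.72 (SE 0.14, DESeq2 adjusted p 1.2e-05).

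Elastic fibre and matricellular genes were the matrix group with more calls for belinostat, 9 higher and 7 lower of 36 tested (44.4%, median 0.045). TNXB (tenascin X) held 761, 1628, 1743 and 1422 normalized counts under belinostat and 601, 558, 467 and 596 under GSK-J4, with library 17 the closest to the GSK-J4 libraries, and differed by 1.32 (SE 0.27, DESeq2 adjusted p 4.2e-05), or 1.52 without it. Its pseudogene partner TNXA may share reads. ELN (elastin) held 80.2, 242, 207 and 111 normalized counts under belinostat and 91.5, 51.2, 51.8 and 66 under GSK-J4. The groups overlapped through library 17, and the difference was 1.29 (SE 0.34, DESeq2 adjusted p 0.00194), or 1.52 without it. FBLN2 (fibulin 2) held 864, 891, 905 and 824 normalized counts under belinostat and 536, 516, 488 and 439 under GSK-J4, a difference of 0.82 (SE 0.11, DESeq2 adjusted p 2.09e-12), whereas its relative FBLN1 held 13860, 19120, 19700 and 19190 normalized counts under belinostat and 27370, 31480, 28120 and 27730 under GSK-J4, a difference of -0.67 (SE 0.094, DESeq2 adjusted p 7.43e-11). CCN2, a matricellular protein of the connective tissue growth factor type, differed by 0.78 (SE 0.21) with library 17 inside the GSK-J4 range and by 0.96 without it, and the lysyl oxidase LOXL3 and the elastin-associated EMILIN1 differed by -0.52 (SE 0.068) and -0.52 (SE 0.068). TNC (tenascin C), which the study singled out, held 3140, 2713, 1568 and 1638 normalized counts under belinostat and 3402, 3828, 4087 and 3159 under GSK-J4. GSK-J4 exceeded vehicle by 0.85 and belinostat was not called against it, the difference was -0.68 (SE 0.22, DESeq2 adjusted p 0.0196), and the call was lost with only these 8 libraries fitted (-0.68), without belinostat library 20 (-0.55), without GSK-J4 library 22 (-0.65) and without GSK-J4 library 23 (-0.61), with adjusted p from 0.000458 to 0.0892 over the DESeq2 and edgeR alternatives.

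Of 35 tested proteases and inhibitors 10 were higher under GSK-J4 and 6 under belinostat (45.7%, median -0.065, and 21 calls without library 17). SERPINF1 (the antiangiogenic PEDF) held 692, 834, 872 and 840 normalized counts under belinostat and 2152, 2912, 2317 and 2233 under GSK-J4, a difference of -1.57 (SE 0.092, DESeq2 adjusted p 3.43e-61). Both sides of vehicle were called for it, -1.02 and 0.55. PLAT, the tissue plasminogen activator, differed by -0.99 (SE 0.12), and belinostat lay below vehicle by nearly as much (-0.99). The aggrecanase ADAMTS5 held 21470, 33640, 31490 and 33910 normalized counts under belinostat and 16510, 16070, 16810 and 16910 under GSK-J4. It was called above vehicle under belinostat (0.44) and below it under GSK-J4 (-0.42), with 0.86 (SE 0.12, DESeq2 adjusted p 2.29e-10) between them. SERPINE2, an inhibitor of thrombin and plasminogen activators, had the same order, at 0.81 (SE 0.078), and MMP11 differed by 0.57 (SE 0.092).

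Among 26 tested proteoglycans and hyaluronan genes 6 were higher under GSK-J4 and 4 under belinostat (38.5%, median -0.050). HAS3, a hyaluronan synthase, held 28.6, 53.7, 90.6 and 77.9 normalized counts under belinostat and 145, 135, 122 and 144 under GSK-J4, a difference of -1.13 (SE 0.26, DESeq2 adjusted p 0.000229). The belinostat libraries lay near vehicle (69.5, 54.6, 52.2 and 44.3), and GSK-J4 stood above it by 1.31. TNFAIP6, a hyaluronan-binding protein named after its values were seen, had few counts, 5.73, 1.22, 3.24 and 8.31 normalized counts under belinostat and 18.3, 26.6, 20.3 and 14.7 under GSK-J4, and a difference of -2.08 (SE 0.50, DESeq2 adjusted p 0.000594). The pericyte proteoglycan CSPG4 differed by -0.98 (SE 0.17), BGN (biglycan) by -0.85 (SE 0.10) and the syndecan SDC1 by -0.77 (SE 0.13). VCAN (versican) held 10510, 6976, 5135 and 6937 normalized counts under belinostat and 4254, 3538, 3698 and 4354 under GSK-J4, a difference of 0.90 (SE 0.20, DESeq2 adjusted p 0.000165) in favour of belinostat. The hyaluronan receptor CD44 (0.45 (SE 0.06)) and the glypican GPC4 (0.57 (SE 0.08)) were higher under belinostat too.

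Genes of the TGF-beta and BMP pathways were the list with most calls towards belinostat. Of 42 tested, 16 were higher under belinostat and 5 lower (50%), with a median of 0.15, and without library 17 there were 24 calls. NOG, described above, led the list. Targets of BMP signalling were among its members. ID1 held 449, 321, 291 and 337 normalized counts under belinostat and 119, 145, 178 and 169 under GSK-J4, ID2 held 867, 707, 577 and 738 normalized counts under belinostat and 354, 301, 337 and 305 under GSK-J4, and neither overlapped. They differed by 1.20 (SE 0.18, DESeq2 adjusted p 2.28e-09) and 1.16 (SE 0.12, DESeq2 adjusted p 1.83e-19), with belinostat above vehicle by 0.67 and 0.81, both called, and GSK-J4 was not called against vehicle. LDLRAD4, which restrains TGF-beta receptors, held 449, 622, 464 and 594 normalized counts under belinostat and 242, 166, 236 and 238 under GSK-J4 and differed by 1.27 (SE 0.19, DESeq2 adjusted p 3.26e-09), of which the GSK-J4 side was called against vehicle (-0.80). Receptors went both ways. BMPR2, a BMP receptor, differed by 0.43 (SE 0.061) in favour of belinostat. BMPR1A, another, differed by 0.12 (SE 0.041, DESeq2 adjusted p 0.0259), a call lost with only these 8 libraries fitted and without belinostat library 18 or 19 or GSK-J4 library 21, 23 or 24, with log2 differences from 0.11 to 0.14 and adjusted p up to 0.118 over the DESeq2 and edgeR alternatives. The remaining 3 called receptors and coreceptors were lower under belinostat. TGFBR2 held 6202, 8279, 8034 and 7463 normalized counts under belinostat and 9818, 9808, 9898 and 9866 under GSK-J4, a difference of -0.39 (SE 0.079, DESeq2 adjusted p 2.05e-05), TGFBR3 differed by -0.68 (SE 0.087) and endoglin (ENG) by -0.42 (SE 0.092). The BMP antagonist CHRD differed by -0.51 (SE 0.14), in the direction opposite to NOG. The ligand BMP7, named after its values were seen, held 17.2, 8.55, 5.39 and 17.6 normalized counts under belinostat and 41.7, 27.6, 45.7 and 34.6 under GSK-J4, a difference of -1.60 (SE 0.43, DESeq2 adjusted p 0.00319).

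In the WNT list 6 of 34 tested members were higher and 7 lower under belinostat (38.2%, median -0.14). The 4 called frizzled receptors shared a direction, with FZD8 at 0.87 (SE 0.13), FZD4 at 0.55 (SE 0.08), FZD6 at 0.43 (SE 0.063) and FZD1 at 0.41 (SE 0.093), all higher under belinostat. FZD8 held 200.5, 302, 258 and 291 normalized counts under belinostat and 148, 132, 146 and 147 under GSK-J4. The secreted inhibitor DKK1, named after its values were seen, held 48.7, 63.5, 77.7 and 80 normalized counts under belinostat and 30.5, 14.3, 13.2 and 17.8 under GSK-J4, a difference of 1.83 (SE 0.28, DESeq2 adjusted p 3.8e-09), likewise in favour of belinostat. Other inhibitors lay on the opposite side, with APCDD1 as described above, NKD1 at -0.77 (SE 0.16) and NKD2 at -0.63 (SE 0.069). NKD2 held 804, 932, 924 and 875 normalized counts under belinostat and 1352, 1479, 1237 and 1393 under GSK-J4, a difference with DESeq2 adjusted p 2.69e-17 that lay between belinostat and vehicle (-0.68) and not between GSK-J4 and vehicle (-0.046).

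The insulin-like growth factor and Notch pathways are short lists with 3 calls each, shares above the 12.2% of all genes. Of 14 genes of the insulin-like growth factor axis, IGFBP3 and IRS1 were higher under belinostat and STC2 lower (21.4%), and without library 17 there were 6 calls. IRS1, the receptor's adaptor, differed by 0.22 (SE 0.047). STC2, an inhibitor of the protease PAPPA, held 6665, 3684, 4311 and 4172 normalized counts under belinostat and 7177, 9544, 7583 and 7133 under GSK-J4, with library 17 far above its group, a difference of -0.74 (SE 0.14, DESeq2 adjusted p 6.12e-06) or -0.95 without that library. PAPPA itself, named after its values were seen, was not called with library 17 and differed by -0.97 (DESeq2 adjusted p 8.5e-25) without it. Of 15 Notch pathway genes 3 were called (20%). The ligand DLL1 held 123, 144, 145 and 140.2 normalized counts under belinostat and 313, 263, 275 and 306 under GSK-J4, a difference of -1.07 (SE 0.12, DESeq2 adjusted p 2.32e-18), and the coactivators MAML2 and MAML1 differed by 0.37 (SE 0.068) and -0.18 (SE 0.052). NOTCH3 is counted in the contractile program.

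Transcription factors of gut mesenchyme and hedgehog signalling were called in 15 of 37 cases (40.5%), 6 higher and 9 lower under belinostat. Of the called GLI and PTCH genes, GLI1, GLI2 and PTCH1 were higher under belinostat and GLI3 alone was lower. PTCH1, a hedgehog receptor, differed by 0.49 (SE 0.15, DESeq2 adjusted p 0.013), and its groups overlapped. That call did not hold when belinostat library 18 (0.41), GSK-J4 library 22 (0.41) or GSK-J4 library 23 (0.44) was left out. GLI2 held 1576, 1921, 1917 and 2240 normalized counts under belinostat and 1187, 1272, 1390 and 1412 under GSK-J4, a difference of 0.54 (SE 0.10, DESeq2 adjusted p 9.02e-06) in favour of belinostat, while GLI3, which acts mostly as a repressor, held 593, 731, 712 and 701 normalized counts under belinostat and 1076, 1304, 1430 and 1381 under GSK-J4. The GSK-J4 libraries of GLI3 lay at the vehicle level (1316, 1188, 1162 and 1210) and the belinostat libraries all below, with a difference of -0.92 (SE 0.11, DESeq2 adjusted p 2.8e-14) and -0.83 against vehicle. PRRX1, a mesenchymal homeobox factor, held 536, 298, 315 and 275 normalized counts under belinostat and 651, 765, 638 and 622 under GSK-J4, with library 17 above its group, and differed by -0.91 (SE 0.19, DESeq2 adjusted p 4.62e-05) or -1.18 without that library, whereas its paralog PRRX2 differed by 0.66 (SE 0.14) in the other direction. The nuclear receptor NR2F1 differed by -0.53 (SE 0.075), TWIST2 by -0.46 (SE 0.10) and the T-box factor TBX3 by 0.59 (SE 0.084). TWIST1 held 233, 309, 296 and 296 normalized counts under belinostat and 317, 335, 409 and 356 under GSK-J4, a difference of -0.33 (SE 0.10, DESeq2 adjusted p 0.0157), and the call was lost with only these 8 libraries fitted (-0.33), without belinostat library 17 (-0.24) and without GSK-J4 library 23 (-0.25), with adjusted p from 0.00794 to 0.116 over the DESeq2 and edgeR alternatives. Of 22 tested HOX genes, which keep positional identity, 2 were called (9.09%, below the 12.2% of all genes). HOXA11 differed by 0.29 (SE 0.058) and HOXA7 by -0.35 (SE 0.10), and the call of HOXA7 was lost without belinostat library 17 (-0.28) and without GSK-J4 library 22 (-0.31), with adjusted p from 0.00674 to 0.061 over the DESeq2 and edgeR alternatives.

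The remaining genes that the study singled out did not separate the compounds. The cytokine IL11 differed by -0.21 (SE 0.13, DESeq2 adjusted p 0.381), the chemokine CXCL6 by -0.16 (SE 0.16, DESeq2 adjusted p 0.65), the ETS factor ETV4 by -0.22 (SE 0.23, DESeq2 adjusted p 0.678) and the repressor PRDM1 by 0.15 (SE 0.11, DESeq2 adjusted p 0.422). RELB, a subunit of NF-kB, held 105, 41.5, 122 and 31.1 normalized counts under belinostat and 54.9, 106, 33.5 and 0 under GSK-J4, too uneven for a direction. CA12, a carbonic anhydrase, held 619, 175, 206 and 138 normalized counts under belinostat and 389.5, 597, 414 and 345 under GSK-J4. Library 17 was the highest of the 8 and the other belinostat libraries the lowest, so the difference was -0.62 (SE 0.43, DESeq2 adjusted p 0.43) with it and -1.34 (DESeq2 adjusted p 7.56e-07) without it, and adjusted p over the alternatives ran up to 0.726. PI16 held at most 3.24 normalized counts in a library and was not tested.

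Inflammatory transcription factors and their feedback genes were called in 15 of 41 cases (36.6%), 2 higher and 13 lower under belinostat, with a median of -0.081. Without GSK-J4 library 22 the count was 8. JUNB, a subunit of AP-1, held 540.4, 688, 675 and 627 normalized counts under belinostat and 974, 983, 839 and 877 under GSK-J4, a difference of -0.54 (SE 0.092, DESeq2 adjusted p 2.12e-07). NFKBIE, an inhibitor of NF-kB, differed by -0.60 (SE 0.15). FOSL1, another AP-1 subunit, differed by -0.64 (SE 0.18, DESeq2 adjusted p 0.00437), and its call was lost without GSK-J4 library 22 (-0.46), with adjusted p from 0.000524 to 0.0596 over the DESeq2 and edgeR alternatives. DUSP1, a phosphatase that shuts off MAP kinases, held 648, 720.4, 886 and 845 normalized counts under belinostat and 469, 464, 540.5 and 550.3 under GSK-J4, a difference of 0.62 (SE 0.10, DESeq2 adjusted p 1.68e-07) in favour of belinostat.

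Interferon response genes were called in 9 of 46 cases (19.6%), 2 higher and 7 lower under belinostat, and the count depended on single libraries. It was 3 without GSK-J4 library 22, 4 without belinostat library 18 and 5 without belinostat library 19 or 20. ISG20, an exonuclease, differed by -0.81 (SE 0.22, DESeq2 adjusted p 0.00391). GBP4, a guanylate-binding GTPase, held 644, 670.4, 622 and 549 normalized counts under belinostat and 312, 271, 244 and 234 under GSK-J4. It was the clearest member and went towards belinostat, by 1.23 (SE 0.16, DESeq2 adjusted p 5.7e-13), with GSK-J4 below vehicle, at -0.82 (DESeq2 adjusted p 8.2e-05). Of 22 tested complement genes 6 were higher under GSK-J4 and 2 under belinostat (36.4%, median -0.23). C3, the central component (chr19:6677704-6730562, minus strand), held 296, 245, 290.2 and 315 normalized counts under belinostat and 734, 1157, 908 and 811 under GSK-J4. The vehicle libraries, at 473, 337, 351 and 602, lay between the groups, and both sides were called, -0.62 for belinostat and 1.03 for GSK-J4, with -1.65 (SE 0.18, DESeq2 adjusted p 3.3e-17) between the compounds. C7 differed by -1.21 (SE 0.30), C2 by -0.49 (SE 0.091) and CD55, which protects cells from complement, by -0.55 (SE 0.059).

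Prostaglandin genes split by enzyme. Of 17 tested, 2 were higher and 4 lower under belinostat (35.3%). PTGS2, the inducible cyclooxygenase (chr1:186671791-186680922, minus strand), held 208, 75.7, 65.8 and 65.4 normalized counts under belinostat and 292, 276, 280.4 and 239 under GSK-J4. Library 17 lay near the GSK-J4 level and the other belinostat libraries far below it, and the difference was -1.39 (SE 0.31, DESeq2 adjusted p 0.000169) or -1.98 without that library. PTGES, which makes prostaglandin E from its product, held 1452, 1143, 1024 and 1281 normalized counts under belinostat and 609, 549.8, 616 and 579.6 under GSK-J4, a difference of 1.06 (SE 0.11, DESeq2 adjusted p 5.82e-21) that lay between belinostat and vehicle (1.09). PTGER4, a receptor of that prostaglandin, held 625, 414, 346 and 368 normalized counts under belinostat and 244, 234, 249.9 and 224 under GSK-J4. There the difference of 0.88 (SE 0.16, DESeq2 adjusted p 2.22e-06) lay between GSK-J4 and vehicle (-0.85), and belinostat was at 0.029. Library 17 was the highest belinostat library for PTGER4, and the lowest difference over the alternatives was 0.66. With PTGDS, described above, the synthases for prostaglandins D and E lay on opposite sides. Of 15 tested genes of the kynurenine pathway and the aryl hydrocarbon receptor, AHR itself (0.61 (SE 0.10)), its targets TIPARP (0.45 (SE 0.097)) and CYP1B1 (0.49 (SE 0.17)) were higher under belinostat and KYNU lower (26.7%). Library 17 was the highest belinostat library for AHR and TIPARP, whose lowest differences over the alternatives were 0.47 and 0.34. The median level of the list relative to the vehicle mean was 0.47 in library 17 and -0.0089, 0.12 and 0.021 in belinostat libraries 18 to 20. The call of CYP1B1 was lost by edgeR (0.49), without belinostat library 18 (0.48), without belinostat library 19 (0.47), without belinostat library 20 (0.48), without GSK-J4 library 21 (0.48), without GSK-J4 library 22 (0.46) and without GSK-J4 library 24 (0.42), with adjusted p from 0.00207 to 0.126 over the DESeq2 and edgeR alternatives.

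Cell cycle inhibitors and p53 targets were called in 13 of 31 cases (41.9%), 4 higher and 9 lower under belinostat. CCND2, a D-type cyclin, held 763, 932, 962 and 829 normalized counts under belinostat and 402, 343, 334 and 393 under GSK-J4, a difference of 1.24 (SE 0.10, DESeq2 adjusted p 1.02e-31) with 0.98 between belinostat and vehicle. The inhibitor CDKN2B differed by 0.75 (SE 0.12) and GADD45B by 0.55 (SE 0.11) in the same direction. PLK2 held 2096, 1318, 1405 and 1316 normalized counts under belinostat and 2962, 2716, 3018 and 2957 under GSK-J4, with library 17 above its group, and differed by -0.93 (SE 0.20, DESeq2 adjusted p 6.01e-05), or -1.11 without it. DDB2, FDXR and FAS, targets of p53, differed by -0.41 (SE 0.085), -0.40 (SE 0.1) and -0.32 (SE 0.073). Of 23 proliferation genes, 3 were called (13%), all lower under belinostat, with a median of -0.27 over the list, a share near the 12.2% of all genes. TYMS, which makes thymidylate, held 190, 190.5, 206 and 173 normalized counts under belinostat and 260.4, 230.4, 265 and 297 under GSK-J4, a difference of -0.47 (SE 0.11, DESeq2 adjusted p 0.00047). RRM2 differed by -1.02 (SE 0.33, DESeq2 adjusted p 0.019), and the call was lost without belinostat library 17 (-0.78), without belinostat library 20 (-1.02) and without GSK-J4 library 22 (-0.77), with adjusted p from 0.00421 to 0.149 over the DESeq2 and edgeR alternatives. TOP2A differed by -0.65 (SE 0.21, DESeq2 adjusted p 0.0249), and the call was lost without belinostat library 17 (-0.50), without belinostat library 18 (-0.63), without belinostat library 19 (-0.66), without GSK-J4 library 21 (-0.64), without GSK-J4 library 22 (-0.61) and without GSK-J4 library 24 (-0.57), with adjusted p from 0.00523 to 0.106 over the DESeq2 and edgeR alternatives. The count of the list was 1 without GSK-J4 library 22 and 5 without GSK-J4 library 23. Against vehicle, 3 proliferation genes were called higher under GSK-J4.

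The response driven by ATF4, which induces amino acid transport and synthesis under stress, was the list that turned most on 1 library. With all libraries 1 of 26 tested genes was called, ATF5 (3.85%), and the median was -0.020. Without belinostat library 17, 19 of 28 tested were called, all lower under belinostat, and the median was -0.30. The median log2 level of the list relative to the vehicle mean was 0.67 in library 17, -0.072, -0.099 and -0.16 in belinostat libraries 18 to 20, and 0.18, 0.18, 0.18 and 0.067 in the GSK-J4 libraries. Library 17 was the highest of the 12 cytokine-pulsed libraries for 22 of the 29 genes. TRIB3, a pseudokinase of this response named after its values were seen, held 560.4, 96.5, 116 and 129 normalized counts under belinostat and 281, 247, 277 and 236 under GSK-J4. DESeq2 gave it no adjusted p with all libraries, and its difference was -1.19 (DESeq2 adjusted p 3.53e-13) without library 17. PHGDH, the first enzyme of serine synthesis and likewise named afterwards, held 1530, 623, 547 and 601 normalized counts under belinostat and 895, 790.5, 915 and 772 under GSK-J4, and differed by -0.03 with library 17 and -0.52 (DESeq2 adjusted p 3.95e-07) without it. ATF5 held 355, 190.5, 204 and 218 normalized counts under belinostat and 383, 357, 376 and 330.2 under GSK-J4, a difference of -0.58 (SE 0.16, DESeq2 adjusted p 0.00391).

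Metabolic and oxidative stress lists moved with the same library. Of 33 cholesterol and fatty acid genes 0 were called by DESeq2 with all libraries and 0 by edgeR, with 0 at an unadjusted DESeq2 p under 0.05, and 4 were called without library 17. The median level of that list was 0.53 in library 17 and -0.12 to -0.020 in the other belinostat libraries. Of 26 hypoxia and glycolysis genes 7 were called (26.9%), 12 without library 17, and 4 when any of belinostat libraries 18 and 20 and GSK-J4 libraries 21, 22 and 23 was left out. The glucose transporter SLC2A1 held 3919, 5663, 5709 and 4832 normalized counts under belinostat and 6407, 7620, 6579 and 6299 under GSK-J4, a difference of -0.42 (SE 0.11, DESeq2 adjusted p 0.0021), and PFKFB3, a regulator of glycolysis, differed by 0.35 (SE 0.056) in favour of belinostat. Of 18 metal and NRF2 genes 6 were called (33.3%) and 11 without library 17. SRXN1, which repairs peroxiredoxins, held 1322, 1092, 1084 and 1048 normalized counts under belinostat and 2019, 1757, 1985 and 1706 under GSK-J4, a difference of -0.72 (SE 0.083, DESeq2 adjusted p 1.55e-15). The transferrin receptor TFRC differed by -0.35 (SE 0.063).

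**Figure D5:**
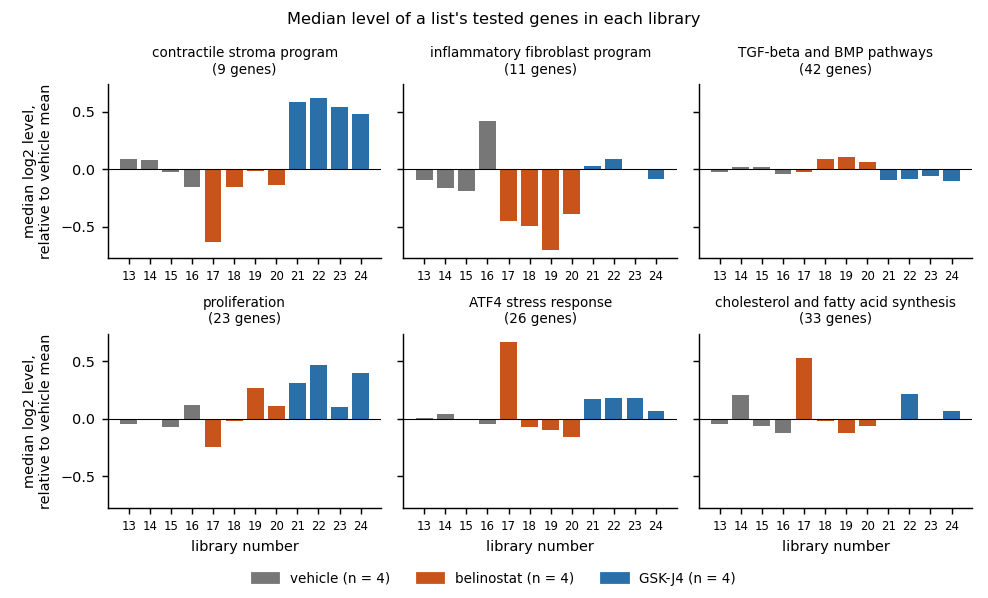
Bars give, for each of 12 libraries, the median over a list's tested genes of the log2 level (normalized count plus 0.5) relative to the vehicle mean. GSK-J4 libraries 21 to 24 are the 4 highest in the contractile panel, the 4 belinostat libraries the lowest in the inflammatory panel, and library 17 stands alone in the ATF4 and cholesterol panels.

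The enzymes that write and erase histone acetylation and methylation, among them the targets of both compounds, hardly differed. Of 47 tested, 2 were called (4.26%, below the 12.2% of all genes), with a median of -0.0026. HDAC1 held 2455, 2512, 2466 and 2522 normalized counts under belinostat and 2560, 2577, 2699 and 2709 under GSK-J4, without overlap but with a difference of only -0.083. HDAC2, HDAC3 and HDAC8 differed by 0.11, -0.093 and -0.03, and none of the 4 deacetylases was called. KDM6A differed by 0.14 (SE 0.098, DESeq2 adjusted p 0.45). KDM6B held 1339, 1329, 1370 and 1290 normalized counts under belinostat and 1195, 1157, 1123 and 1214 under GSK-J4. Its groups did not overlap, its difference of 0.18 (SE 0.077, DESeq2 adjusted p 0.106) was not called, and it passed only with these 8 libraries fitted alone (0.18), with adjusted p from 0.0117 to 0.273 over the DESeq2 and edgeR alternatives. HDAC4 differed by 0.20 (SE 0.067, DESeq2 adjusted p 0.0302), a call lost without belinostat library 18 (0.17), without belinostat library 20 (0.18), without GSK-J4 library 21 (0.19), without GSK-J4 library 22 (0.20) and without GSK-J4 library 24 (0.18), with adjusted p from 0.0233 to 0.122 over the DESeq2 and edgeR alternatives.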

How the data were processed

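RNA-seq libraries of Ccd18-Co wells were grouped by their labels. The authors deposited 1 table of estimated counts from kallisto, not normalized, with 40663 gene symbols, of which 26907 had a count in some library and 28% of values had decimals. The submitters' processing notes name hg38, kallisto 0.48.0, FastQC 0.11.9 and MultiQC 1.14. The transcriptome release, the summing to symbols and the strand setting are not given in the sources used here. Symbols not in the gene name table (313) held 0.0647% of counts. Depth averaged 16.4 ± 1.58 M under belinostat and 17.2 ± 0.386 M under GSK-J4 (SD, n = 4).

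Estimated counts were rounded and fitted with DESeq2 1.42.0 (R 4.3.3) over all 16 libraries by group, with Wald tests, Benjamini-Hochberg adjustment and a threshold of 0.05. Alternatives were edgeR 4.0.16 (quasi-likelihood), TMM size factors, a filter of 10 counts in 4 libraries, only the groups compared, and leaving out each library of those groups in turn. The unstimulated libraries were not left out. Code was tested on simulated data. Replicates under belinostat and under GSK-J4 correlated at 0.99539 to 0.99815, and no pair agreed within sampling noise.

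Named genes were the 15 largest differences each way among called genes whose groups did not overlap and whose mean reached 50 normalized counts, all genes of both study programs, up to 4 called members each way of every other list (not all of which are printed), genes the study singled out, and the compounds' targets. Genes named beyond this are said to be chosen later or belong to a list or promoter count given beside them. Members and lists were chosen with earlier results of these data known. Gene coordinates come from GENCODE v44 (GRCh38) by symbol and promoter windows from RefSeq (GRCh38.p14). FOXF2, FOXC1 and FOXC2 were not analysed here. Some genes that met the naming rule are not reported here.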

Additional observations from a re-analysis of the deposited data

Results flagged for a closer look

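In groups of 4 libraries, a library was marked where its gap to the nearest other, divided by the range of the group, exceeded Dixon's 95% critical value for 4 samples. Chance marks about 1 in 20 groups, and 28 of 350 groups of the named genes were marked (8%), 16 of them for belinostat library 17. Values are normalized counts, each beside the lowest and highest of the other 3 libraries of the group. Belinostat library 17 lay below its group for IGFBP3 (5769 against 11120 to 11570), ADAMTS8 (51.5 against 163 to 184), A2M (885 against 2659 to 2917), ACTG2 (3487 against 4330 to 4424) and FBLN1 (13860 against 19120 to 19700). Belinostat library 17 lay above its group for KCNK3 (281 against 114 to 117), MMP3 (1140 against 324 to 457), MMP1 (482 against 189 to 216), ITGA8 (14990 against 9858 to 10430), PRRX1 (536 against 275 to 315) and PLK2 (2096 against 1316 to 1405). Belinostat library 17 lay above its group for ATF5 (355 against 190.5 to 218), PTGS2 (208 against 65.4 to 75.7), PLA2G4A (241 against 136 to 144), SRXN1 (1322 against 1048 to 1092) and CA12 (619 against 138 to 206). GSK-J4 library 21 lay above its group for SYT15B (65.1 against 24.1 to 29.7), MYOCD (7775 against 7267 to 7335), CDKN2B (363 against 300 to 309.9) and TP53INP1 (2193 against 2056 to 2075). GSK-J4 library 22 lay below its group for FZD8 (132 against 146 to 148) and LDLRAD4 (166 against 236 to 242). GSK-J4 library 22 lay above its group for IFI6 (5735 against 951 to 1194), CXCL2 (45 against 21.4 to 25.2), IFITM3 (11200 against 6759 to 7296) and ETV4 (64.5 against 39.7 to 43.7). GSK-J4 library 23 lay above its group for ATF3 (155 against 103 to 108) and CHRD (261 against 199 to 204).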

How the results depend on the processing

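Between the compounds, the count of 1795 genes became 1631 with edgeR, 1817 with TMM size factors, 1822 with low counts filtered and 1623 with only the 8 libraries fitted, and it ran from 1314 (without GSK-J4 library 22) to 2136 (without belinostat library 17) when 1 library was left out. Of the main calls 1590 were shared with edgeR and 1537 with the fit without library 17. The count of genes beyond 1.5 on the log2 scale and higher under belinostat, 26, ran from 17 (without belinostat library 20) to 39 (without GSK-J4 library 24). The count for GSK-J4 against vehicle, 253, was 91 with edgeR, 542 with only the groups compared and 132 (without vehicle library 15) to 193 with 1 library left out. The cause was not tested. Of 157 named genes called, 132 kept their call in all 12 alternatives and 25 lost it in at least 1, and of 21 not called 6 passed in at least 1. No value that had been called changed sign. Of 312 counts of list members under an alternative, 25 differed from the main count by over 1.5 times. No paired analysis was possible because the groups share no replicate numbers.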
